A study of Mus musculus with 6 samples.

Results

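Transcripts of 9 genes of the interleukin-1 (IL-1) family were followed in mouse 4T1 cells, a mammary carcinoma line. The genes were chosen by symbol, as ligands (Il1a, Il1b, Il18 and Il33), soluble inhibitors (Il1rn and Il18bp) and receptor chains (Il1r1, Il1rap and Il1rl1), and all 9 were among the 22105 features of the table that carry a gene identifier. The experiment had 6 libraries from 2 groups, 3 of cells given phosphate-buffered saline (PBS) and 3 of cells given nanoparticles named CM-PEG-PLGA@DOX/R848, both for 24 h. The particles carried doxorubicin (DOX), a topoisomerase II poison, and R848 (resiquimod), a drug that activates TLR7. The dose was equal to 2 µg/mL of doxorubicin. Particles without drug and free drugs were not analysed here. All libraries came from the 1 cell line in culture. The labels do not say whether the libraries within a group were grown as separate cultures; the p-values then reflect variation among these 6 samples alone, part of which may be technical.

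IL-1 family cytokines carry alarm signals of damaged or infected tissue. IL-1 alpha and IL-1 beta bind the receptor chain IL1R1, which then recruits the shared accessory chain IL1RAP and the adaptor MYD88 to activate NF-kB and MAP kinases; IL-33 uses IL1RL1 (also called ST2) with the same accessory chain, and IL-18 has its own pair of chains. The receptor antagonist encoded by Il1rn occupies IL1R1 without signalling, and the IL-18 binding protein encoded by Il18bp holds IL-18 away from its receptor. IL-1 beta and IL-18 are made as precursors that caspase-1 cuts, so that transcript levels do not measure released cytokine.

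Both chains of the IL-1 receptor fell with nanoparticles: Il1r1 to 33.8% and Il1rap to 42.2% of the PBS mean. The call of Il1rap, a long gene, was lost when the trend with gene span was removed (adjusted p = 0.666). Il18 fell to 54.8% of its PBS mean while Il18bp, its soluble inhibitor, rose 2.67-fold. Il1a was 1.16-fold higher, a difference that 4 of 14 alternatives did not keep. The other 4 genes, Il1b, Il33, Il1rn and Il1rl1, stayed under 1 FPKM (fragment numbers corrected for transcript length and library total) in every library and were not tested. A gene was tested with limma when 3 or more libraries reached 1 FPKM, which left 10863 genes, and it was called at a Benjamini-Hochberg adjusted p under 0.05 over all of them. Of the 5 IL-1 family genes that passed this filter, 2 were called higher and 3 lower, and 0 were not called. In all 5 the 2 groups of libraries did not overlap, as in 87.2% of the tested genes. Over all tested genes 86.4% were called, 40.5% as higher and 46.0% as lower, so the share of called genes in the family is near that of the whole table.

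**Figure D1:**
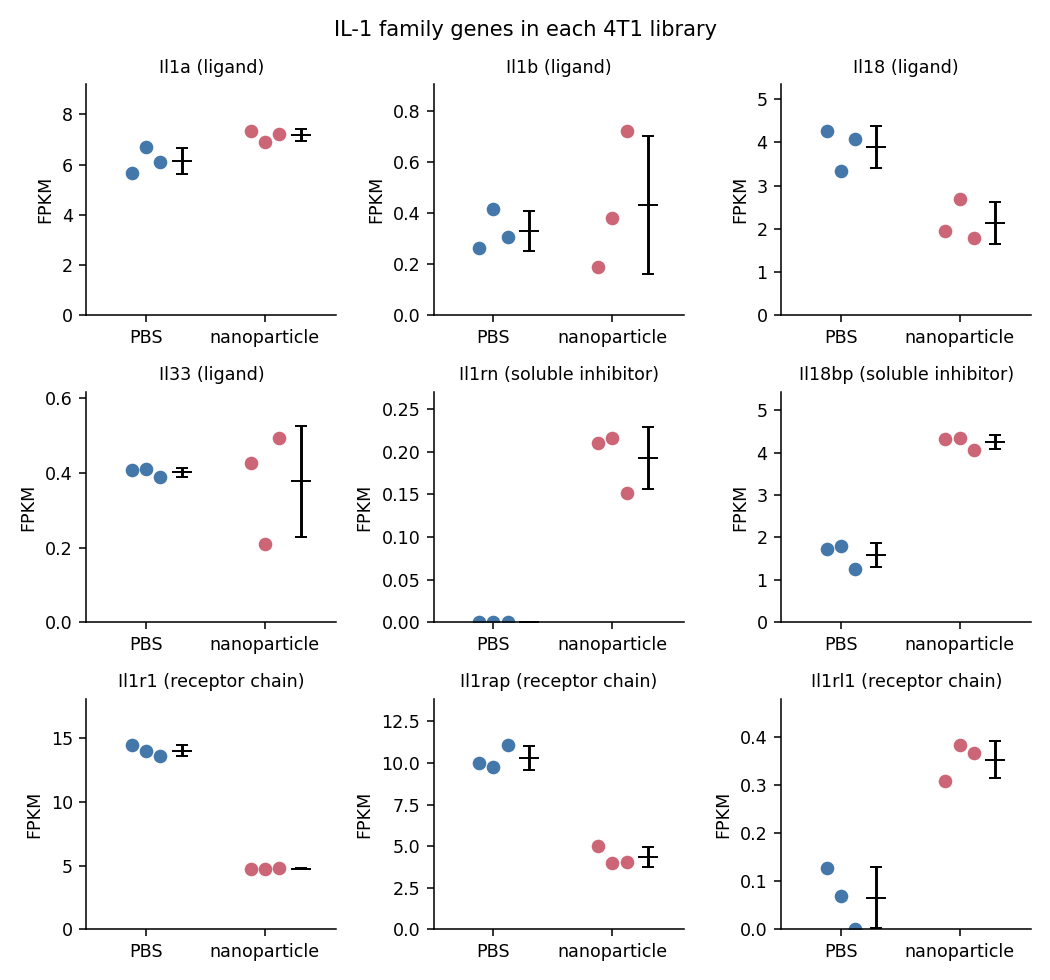
FPKM of each IL-1 family gene in each library (circles, 3 PBS and 3 nanoparticle), with the mean and SD of the group beside them in black; each panel has its own axis from 0. Il1r1, Il1rap and Il18 are lower and Il18bp is higher in all 3 nanoparticle libraries, while the axes of Il1b, Il33, Il1rn and Il1rl1 all end below 1 FPKM.

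A few facts of the whole table bear on these genes. Depth is unknown, since no read unit could be recovered from the FPKM values. A PBS library listed 13544 to 13808 genes above 0 and a nanoparticle library 18319 to 18509, while every library had 10596 to 10631 genes of at least 1 FPKM. Of 12 epithelial markers, 7 reached 1 FPKM in every library (Krt8, a simple epithelial keratin, ranged from 211.8 to 343.4 FPKM), but Epcam, a surface marker of epithelial cells, ranged from 0.4361 to 0.7541 FPKM. Of 20 macrophage and myeloid markers, 5 reached 1 FPKM in some library (Cd14, Csf1r, Cd68, Mpeg1 and S100a8). The sum of that list was 46.7 to 53.7 FPKM with PBS and 58.1 to 63.8 FPKM with nanoparticles. Within it Cd68, a lysosomal protein, went from 10.57 to 14.14 FPKM to 33.46 to 36.34 FPKM. Csf1r (0.02723 to 0.05036 with PBS, 1.217 to 1.869 with nanoparticles) and Mpeg1 (0.009216 to 0.1618 and 1.668 to 1.875) were also higher. Cd14 (11.11 to 12.35 with PBS, 5.879 to 7.979 with nanoparticles) and S100a8 (23.44 to 30.08 and 10.62 to 12.84) were lower. Most of the remaining markers, which stayed below 1 FPKM, had no overlap between groups and were higher with nanoparticles. The same held for 48.9% of all genes below the filter. Ptprc, which marks all leukocytes, was listed at 0 in the PBS libraries and at 0.3892 to 0.6117 FPKM in the nanoparticle libraries. Of genes at 0 with PBS and above 0 but under 1 FPKM with nanoparticles, 49.2% were above 0 in every nanoparticle library.

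Among the ligands, Il1a was the most abundant in both groups. It encodes IL-1 alpha, an alarm cytokine that is active before processing and that epithelial cells store. Il1a stood at 5.67, 6.69 and 6.12 FPKM in PBS libraries 1 to 3 and at 7.35, 6.90 and 7.24 FPKM in nanoparticle libraries 1 to 3. The groups did not overlap, but the lowest nanoparticle library and the highest PBS library were 0.208 FPKM apart. The means were 6.16 ± 0.512 and 7.16 ± 0.238 FPKM (SD, n = 3 per group). On the log2(FPKM + 1) scale, which understates the change of low genes, the difference was 0.19 (SE 0.063, 95% interval 0.05 to 0.33, adjusted p = 0.0164, limma). The call was lost without PBS library 1 (0.14, adjusted p = 0.0649) and without nanoparticle library 1 (0.175, adjusted p = 0.051). Rescaling to TPM, which gives every library the same total, also ended it (0.06, adjusted p = 0.416), and removing the trend with gene span and exonic length turned its sign (-0.03, adjusted p = 0.72).

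Il1b, which encodes IL-1 beta, the main secreted form in myeloid cells, lies beside Il1a on GRCm38 chromosome 2. Il1a is at 129299610 to 129309972 and Il1b at 129364570 to 129371139, both on the minus strand. Il1b stood at 0.265, 0.418 and 0.306 FPKM in the PBS libraries and at 0.191, 0.382 and 0.725 FPKM in the nanoparticle libraries, so that the groups overlapped. The nanoparticle libraries held both its lowest and its highest value. Il33 encodes a nuclear alarm cytokine of barrier cells, and its groups overlapped too. It stood at 0.407, 0.411 and 0.388 FPKM with PBS and at 0.428, 0.211 and 0.495 FPKM with nanoparticles. With no filter on low values, when limma called 67.9% of 20124 genes, it called neither Il1b (log2 difference 0.09, adjusted p = 0.544) nor Il33 (-0.03, adjusted p = 0.749).

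Il18 encodes IL-18, which drives interferon gamma in lymphocytes and is made as a stored precursor by epithelial cells. Il18 stood at 4.27, 3.34 and 4.07 FPKM in PBS libraries 1 to 3 and at 1.94, 2.68 and 1.78 FPKM in nanoparticle libraries 1 to 3. Every nanoparticle library was below every PBS library. The mean went from 3.89 ± 0.493 to 2.13 ± 0.482 FPKM (n = 3 per group), and the log2 difference was -0.65 (SE 0.117, 95% interval -0.92 to -0.38, adjusted p = 0.000584, limma). Of the tested genes, 24.5% had a lower value. The fall of Il18 kept its direction and its call in all 14 alternatives, with log2 differences from -0.89 to -0.57. Il18 lies at chromosome 9, 50554827 to 50581840, where it shares 355 bases with Bco2 and 4507 with Tex12, both on the opposite strand and both with means under 0.5 FPKM. In bulk RNA, fewer cells that express a gene and less of its RNA per cell cannot be told apart.

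Il18bp, the soluble inhibitor of IL-18 and a gene known to respond to interferon, went the opposite way. It stood at 1.72, 1.79 and 1.26 FPKM in the PBS libraries and at 4.33, 4.36 and 4.06 FPKM in the nanoparticle libraries. The groups were far apart relative to their spread, with means of 1.59 ± 0.289 and 4.25 ± 0.165 FPKM (n = 3 per group). The log2 difference was 1.02 (SE 0.088, 95% interval 0.83 to 1.22, adjusted p = 2.25e-06, limma), and 9.79% of the tested genes had a larger one. Il18bp was called higher in all 14 alternatives, with log2 differences from 0.74 to 1.38. Its annotated span, chromosome 7 at 102014885 to 102018690, shares 80 bases with Numa1 on the opposite strand. Mean Numa1 levels were 39.3 FPKM (PBS) and 29.1 FPKM (nanoparticles). The sources used here do not say whether the libraries kept strand, so reads from these bases cannot be assigned to either gene.

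The ratio of Il18bp to Il18 inside a library does not depend on how that library was scaled. It was 0.402, 0.537 and 0.309 in PBS libraries 1 to 3 and 2.23, 1.62 and 2.28 in nanoparticle libraries 1 to 3. The inhibitor's transcript was thus below that of the cytokine in each PBS library and above it in each nanoparticle library, on a scale corrected for transcript length. An exact permutation test of the log2 ratios (two-sided, 3 against 3) gave p = 0.1, the smallest it allows.

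Il1rn, which encodes the IL-1 receptor antagonist, lies at chromosome 2, 24336853 to 24351494, and was listed at 0 in all 3 PBS libraries. It stood at 0.210, 0.217 and 0.151 FPKM in nanoparticle libraries 1 to 3. Because the PBS libraries are listed at 0, no fold is given. Low genes often behaved this way: of 9261 genes that were below the filter and above 0 somewhere, 48.9% were higher in every nanoparticle library than in any PBS library and 3.74% were lower. Of 5338 genes listed at 0 in every PBS library and reaching less than 1 FPKM with nanoparticles, 49.2% were above 0 in all 3 nanoparticle libraries. With no filter, limma called Il1rn higher (log2 difference 0.25, adjusted p = 0.000339), and so were 42.0% of all genes then tested.

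Il1r1, the signalling receptor for IL-1 alpha and IL-1 beta, showed the largest log2 difference of the 5 tested genes. It lies at chromosome 1, 40225080 to 40317257. It stood at 14.5, 14.0 and 13.6 FPKM in PBS libraries 1 to 3 and at 4.76, 4.70 and 4.78 FPKM in nanoparticle libraries 1 to 3. The 3 nanoparticle libraries were nearly equal to each other and all far below the PBS libraries. The mean fell from 14.0 ± 0.439 to 4.75 ± 0.0400 FPKM (n = 3 per group), with a log2 difference of -1.39 (SE 0.046, 95% interval -1.49 to -1.28, adjusted p = 2.59e-09, limma). Only 6.46% of the tested genes had a lower value. The call held in all 14 alternatives, with log2 differences from -1.62 to -0.60, the latter after the trend with span and length had been taken out.

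Il1rap, the accessory chain that the receptors for IL-1 and IL-33 share, fell with it. It lies at chromosome 16, 26581704 to 26730117. It stood at 9.98, 9.77 and 11.1 FPKM in the PBS libraries and at 5.01, 3.99 and 4.02 FPKM in the nanoparticle libraries, with no overlap. The mean fell from 10.3 ± 0.717 to 4.34 ± 0.579 FPKM (n = 3 per group), a log2 difference of -1.08 (SE 0.082, 95% interval -1.27 to -0.90, adjusted p = 9.41e-07, limma). Removing the trend with gene span and exonic length ended that call and turned its sign (0.04, adjusted p = 0.666), and the other 13 alternatives kept it. Called falls of at least 1 on the log2 scale, such as those of Il1r1 and Il1rap, made up 13.5% of the tested genes, and called rises of that size, such as that of Il18bp, 10.2%.

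**Figure D2:**
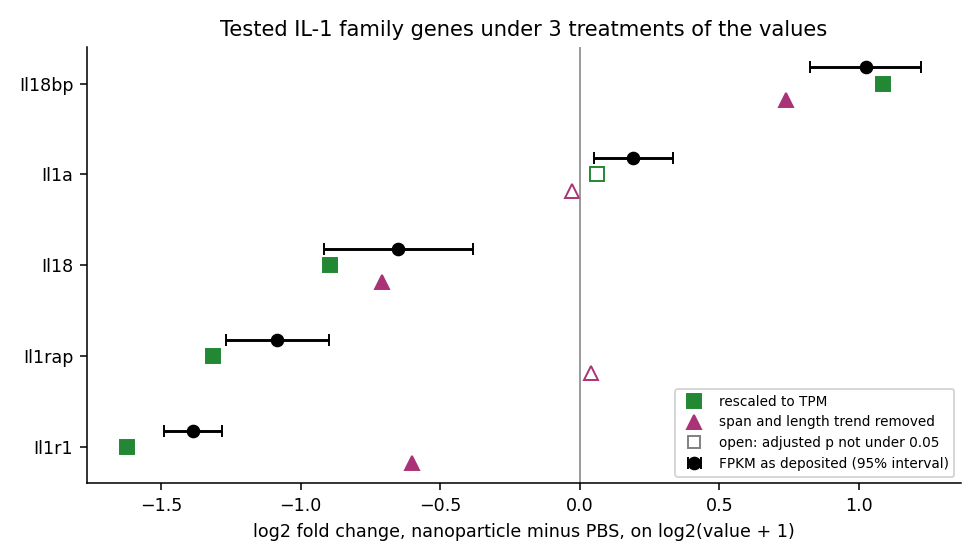
Log2 fold changes (nanoparticle minus PBS, on log2(value + 1)) of the 5 tested IL-1 family genes: black circles with 95% intervals from limma on FPKM as deposited, squares after rescaling to TPM, triangles after removing the trend with gene span and exonic length. Open symbols, for Il1a under both alternatives and for Il1rap under the second, had an adjusted p of at least 0.05.

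The tested IL-1 family genes differ widely in genomic span, and span moved with the change across the table. Il1rap spans 148 kb and Il1r1 92.2 kb, against 27.0 kb for Il18, 10.4 kb for Il1a and 3.81 kb for Il18bp. Of 1202 tested genes of 100 kb or more, 89.5% were called lower and the median log2 difference was -1.10, which is close to that of Il1rap. Of 1602 genes from 50 to under 100 kb, the class of Il1r1, 73.4% were called lower, with a median of -0.54. Of 3137 genes from 20 to under 50 kb, the class of Il18, 44.5% were called lower, with a median of -0.05. Among 1197 genes under 5 kb, the class of Il18bp, 60.3% were called higher and the median was 0.35. Il1r1, Il18 and Il18bp lie further from 0 than the median of their class, and Il1a, at 10 to under 20 kb, lies just below its class median of 0.23. The part of span in these changes was not tested beyond the fit with the trend removed, which took out span and exonic length together.

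**Figure D3:**
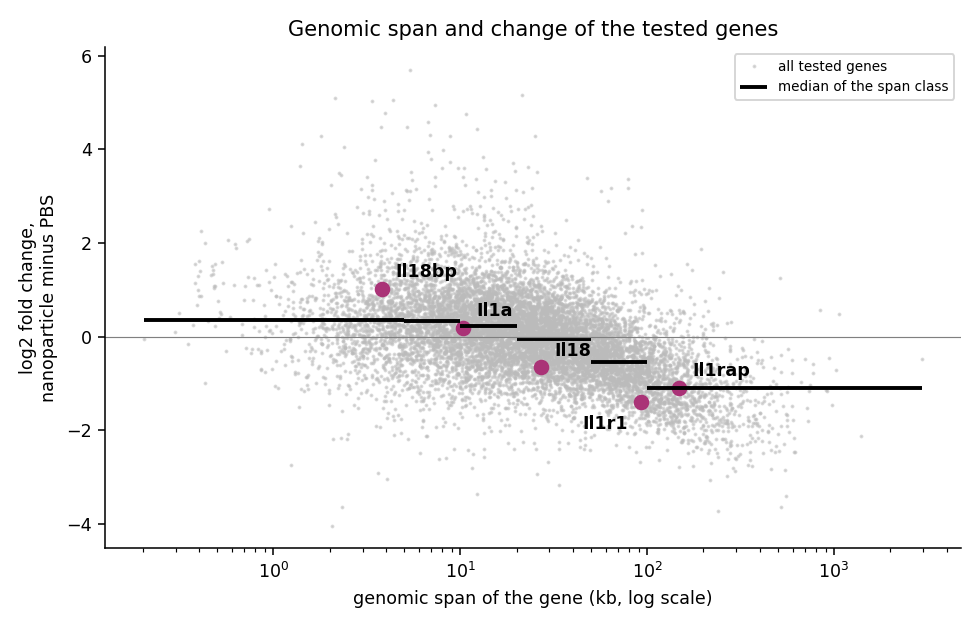
Log2 fold change (nanoparticle minus PBS) of each tested gene against its genomic span in kb on a log axis; grey points are all tested genes, black lines the medians of 6 span classes, and large points the 5 tested IL-1 family genes. Il1rap lies on the median of the class of 100 kb or more (-1.10), while Il1r1 lies below that of its class (-0.54).

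Since Il1r1 and Il1rap fell together, their RefSeq promoter windows (GRCm38.p6, 250 bases before to 50 after each start) are shown, with that of Il1a, for the motifs they hold. Capitals mark matches on either strand to a loose NF-kB form (GGG, any 5 bases, CC), AP-1 (TGANTCA), the core of an interferon-stimulated response element or ISRE (TTTC, any 2 bases, TTTC) or a STAT site called GAS (TTCNNNGAA). The Il1r1 window, chr1:40266336-40266635 on the plus strand, is at the second of 2 listed starts; the Il1rap window is chr16:26581455-26581754 on the plus strand and the Il1a window chr2:129309923-129310222 on the minus strand.
Il1r1: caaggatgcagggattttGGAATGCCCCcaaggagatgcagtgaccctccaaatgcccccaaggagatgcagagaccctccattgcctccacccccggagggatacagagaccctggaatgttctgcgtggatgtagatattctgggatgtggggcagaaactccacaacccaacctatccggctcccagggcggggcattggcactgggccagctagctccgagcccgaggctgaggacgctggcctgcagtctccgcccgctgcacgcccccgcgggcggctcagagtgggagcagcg
Il1rap: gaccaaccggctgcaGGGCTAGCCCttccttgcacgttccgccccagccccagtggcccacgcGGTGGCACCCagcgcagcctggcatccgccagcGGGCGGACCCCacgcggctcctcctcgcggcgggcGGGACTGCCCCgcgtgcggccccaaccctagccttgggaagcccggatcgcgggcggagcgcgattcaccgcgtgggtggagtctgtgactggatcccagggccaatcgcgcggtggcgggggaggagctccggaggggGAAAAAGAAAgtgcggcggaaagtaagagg
Il1a: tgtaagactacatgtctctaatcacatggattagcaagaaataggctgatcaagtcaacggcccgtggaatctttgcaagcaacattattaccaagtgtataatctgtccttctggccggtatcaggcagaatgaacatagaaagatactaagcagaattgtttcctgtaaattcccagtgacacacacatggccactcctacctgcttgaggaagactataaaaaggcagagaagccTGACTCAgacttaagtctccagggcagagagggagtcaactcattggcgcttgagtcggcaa
The Il1rap window held 6 matches to the NF-kB form, of which 2 pairs overlap each other, and 1 to the ISRE core, starting 20 bases after the start site. The Il1r1 window held 1 NF-kB match, and its first listed start held none of the 4 motifs. The Il1a window held 1 AP-1 match, starting 12 bases before the start site. Of 3 windows of Il1rn, the first held 2 NF-kB matches and 1 AP-1 match, and the other two, which overlap, held the same single NF-kB match. The windows of Il18bp, Il18, Il1b, Il33 and Il1rl1 held none of the 4 motifs. Of 32851 windows of all genes, 50.8% held the NF-kB form, 7.81% AP-1, 3.44% the ISRE core and 8.3% GAS, and a match is only a description of the letters. The receptor windows shown also differed in composition: Il1rap had a GC content of 72% with 33 CpG pairs and Il1r1 63.3% with 14. The medians over all windows were 52.7% and 7. Other windows were lower: the first listed Il1r1 start had 49.3% with 5, Il1rl1 38.7% with 1 and 44.7% with 3, and Il18 36.7% with 1.

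Il1rl1, the ST2 receptor of IL-33, was near the floor. It stood at 0.127, 0.0699 and 0 FPKM in PBS libraries 1 to 3 and at 0.309, 0.384 and 0.366 FPKM in nanoparticle libraries 1 to 3. Every nanoparticle library was above every PBS library, as for 48.9% of the genes below the filter. With no filter, limma called it higher (log2 difference 0.35, adjusted p = 0.00123), as it did 42.0% of all genes then tested.

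Il1r1 and Il1rl1 belong to a row of 6 receptor genes within 478 kb of chromosome 1, in the order Il1r2, Il1r1, Il1rl2, Il1rl1, Il18r1 and Il18rap, all on the plus strand (40074079 to 40551705). The genes of this row did not move alike. Il1r1 was called lower. Il18rap, the accessory chain of the IL-18 receptor at the far end, had higher values in every nanoparticle library than in any PBS library. Il18rap stood at 0.387, 0.397 and 0.564 FPKM in PBS libraries and at 2.26, 2.72 and 2.30 FPKM in nanoparticle libraries (log2 difference 1.24, SE 0.086, adjusted p = 4.29e-07, limma). With all PBS libraries under 1 FPKM, it could pass the filter only by being higher, so the direction of its call was fixed in advance. Il18r1, the chain that binds IL-18, was listed at 0 in every PBS library and at 0.199, 0.0844 and 0.231 FPKM in the nanoparticle libraries. Il1r2, the decoy receptor for IL-1, was also listed at 0 with PBS and stood at 0.297, 0.456 and 0.365 FPKM with nanoparticles. Il1rl2, the IL-36 receptor, did not exceed 0.144 FPKM in any library. For Il18r1, Il1r2 and Il1rl2 every nanoparticle library was above every PBS library, as for 48.9% of the genes below the filter.

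**Figure D4:**
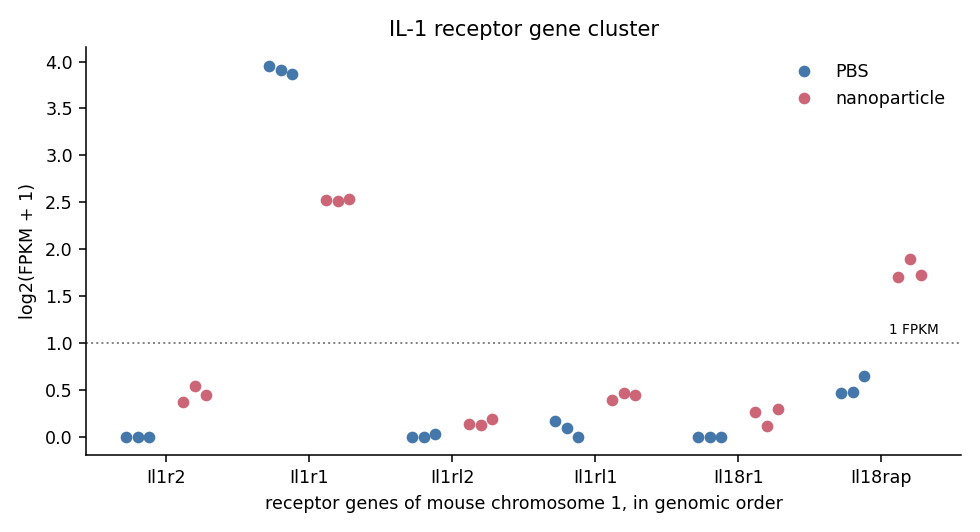
Level of the 6 receptor genes of the chromosome 1 row in genomic order, as log2(FPKM + 1) in each library (circles; PBS and nanoparticle side by side); the dotted line is 1 FPKM. Il1r1 drops from 14.0 to 4.75 FPKM on average, Il18rap goes from 0.449 to 2.43 FPKM, and the other 4 genes stay under the line.

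The order of levels changed between groups. With PBS, Il1r1 (14.0 FPKM) was followed by Il1rap (10.3), Il1a (6.16), Il18 (3.89) and Il18bp (1.59), each pair of neighbours separated in every library. Il33 (0.402) and Il1b (0.330) overlapped, as did Il1rl1 (0.0655) and Il1rn (0). With nanoparticles Il1a (7.16 FPKM) came first and was above Il1r1 (4.75) in every library, while Il1r1 overlapped with Il1rap (4.34) and Il1rap with Il18bp (4.25). Il18 (2.13) was separate from both sides, and Il1b (0.432), Il33 (0.378) and Il1rl1 (0.353) overlapped in turn. Il1rn (0.193) had the lowest mean and overlapped with Il1b and Il33, and Il1rl1 was above it in every library. Inside each library, the ratio of Il1a to Il1r1 was 0.391 to 0.478 with PBS and 1.47 to 1.54 with nanoparticles (exact permutation test, two-sided, p = 0.1, the smallest allowed). The ratio of Il1rap to Il1r1 was 0.689, 0.698 and 0.816 with PBS and 1.05, 0.849 and 0.842 with nanoparticles.

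Markers of stromal and immune cells were examined because Il1r1, Il33 and Il1b are also made by such cells. Of 8 fibroblast markers, Pdgfra and Pdgfrb alone reached 1 FPKM, and the summed list went from 32.7 to 33.0 FPKM with PBS to 7.77 to 9.65 FPKM with nanoparticles, the direction of Il1r1. The matrix genes Dcn, Lum and Col3a1 of that list were at 0 in every PBS library, and Col1a1 was at 0.2608 to 0.2712 FPKM. The lower sum came from Pdgfra and Pdgfrb: each of the other 6 markers was higher in every nanoparticle library than in any PBS library, at no more than 0.5253 FPKM. Of 6 endothelial markers, Cdh5 alone reached 1 FPKM, and that sum went from 8.36 to 8.61 FPKM to 2.39 to 2.65 FPKM. The other 5 were higher in every nanoparticle library than in any PBS library, at no more than 0.4281 FPKM. The same held for 48.9% of all 9261 genes that were below the filter and above 0 somewhere. Of 8 mast cell markers, Hdc alone reached 1 FPKM (list sum 0.33 to 0.507 and 2.09 to 2.67 FPKM), and of 14 lymphocyte markers Lck alone (1.28 to 1.45 and 2.86 to 3.39 FPKM). The part of these cells in the changes was not tested.

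The remaining ligands and receptors of the family were mostly under 1 FPKM. Of 12 such genes, 10 stayed below the filter: Il36a, Il36b, Il36g, Il36rn, Il1f10, Il1r2, Il18r1, Il1rl2, Il1rapl1 and Il1rapl2. Il36rn, the antagonist of the IL-36 receptor, was listed at 0 in every PBS library and averaged 0.179 ± 0.0580 FPKM with nanoparticles. Its nanoparticle libraries were all above its PBS libraries, as for 48.9% of the genes below the filter. Il36a and Il1rapl2 were listed at 0 in all 6 libraries. Sigirr, an inhibitory receptor of the family, was the best expressed of all and went from 37.3 ± 1.27 to 26.7 ± 0.449 FPKM (log2 difference -0.47, adjusted p = 9.21e-07, limma).

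Genes that process and release the ligands were called lower more often than higher, as were all tested genes. This list and those that follow were chosen with earlier results of these data known. Of 19 in the list, 12 were tested: 2 were called higher, 8 lower and 2 were not called, so that 83.3% were called and 66.7% were lower, against 86.4% and 46.0% of all tested genes. The median log2 difference was -0.46, against -0.06 over all tested genes. For 1 of the 8, Mefv (log2 difference -0.79, named after its values were seen), the filter fixed the direction, since every nanoparticle library was under 1 FPKM. Nek7, a kinase that licenses the NLRP3 inflammasome, fell from 52.1 ± 1.02 to 13.6 ± 0.245 FPKM, and Capn1, a calpain protease (the family that cleaves pro-IL-1 alpha), from 58.0 ± 1.23 to 27.5 ± 0.162 FPKM. Casp4, the caspase of the non-canonical inflammasome, rose from 5.45 ± 0.285 to 12.3 ± 0.742 FPKM. These 3 had the smallest adjusted p of their list. Nek7 spans 137 kb, and its log2 difference of -1.87 became -0.81 after removal of the trend with span and length, still called. The next genes were chosen after their values were seen. Casp1, which cuts pro-IL-1 beta and pro-IL-18, went from 8.26 ± 0.479 to 5.92 ± 0.556 FPKM (log2 difference -0.42, adjusted p = 0.000272, limma). Pycard, the adaptor ASC that joins sensors to caspase-1, averaged 0.0270 ± 0.0165 and 0.0294 ± 0.00829 FPKM, and the sensor Nlrp3 averaged 0.442 ± 0.149 and 0.577 ± 0.0244 FPKM; neither was tested.

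Of 23 genes of signalling next to the receptor, 20 were tested, of which 5 were called higher, 11 lower and 4 were not called (median log2 difference -0.14). The called share was 80.0%, with 25% higher and 55.0% lower, against 86.4%, 40.5% and 46.0% over all tested genes. The NF-kB subunits on this list, Nfkb1 and Rela, moved in opposite directions. Nfkb1, which encodes p105 and p50, fell from 58.3 ± 0.984 to 19.8 ± 0.748 FPKM, and Rela, which encodes p65, rose from 35.1 ± 0.605 to 71.4 ± 2.40 FPKM. Nfkb1 spans 107 kb and Rela 10.6 kb, and after removal of the trend with span and length both kept direction and call (-0.59 and 0.80). Tollip, an adaptor that restrains IL-1 receptor signalling, rose from 20.9 ± 0.526 to 37.9 ± 0.852 FPKM. Myd88 and Irak4 were chosen after their values were seen. Myd88, the adaptor that signalling receptors of the family recruit, rose from 28.5 ± 1.74 to 52.1 ± 1.47 FPKM, and Irak4, the kinase it recruits, fell from 6.82 ± 0.266 to 3.23 ± 0.165 FPKM.

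Of 26 genes known to respond to IL-1, all were tested: 14 were called higher, 10 lower and 2 were not called, with a median log2 difference of 0.22. The called share was 92.3%, with 53.8% higher and 38.5% lower, against 86.4%, 40.5% and 46.0% over all tested genes. The filter fixed the direction of 3 of the called genes: Il6 and Cxcl3 (1.42) were under 1 FPKM in every PBS library, and Lrg1 (-3.63) in every nanoparticle library. Cxcl3 and Lrg1 were named after their values were seen. The list did not move one way. Lcn2, an iron-binding acute-phase protein, fell from 2109 ± 32.5 to 278 ± 3.05 FPKM. Ptgs2, the inducible cyclooxygenase, rose 4.15-fold and Lif, a cytokine of the IL-6 type, 3.55-fold. Il6 and Csf2 (chosen after their values were seen) had the largest rises of the list. Il6 averaged 0.238 ± 0.110 and 23.6 ± 2.63 FPKM, and Csf2, which encodes GM-CSF, averaged 5.26 ± 0.997 and 102 ± 2.04 FPKM (n = 3 per group). Over all 80 pathway genes, 60 were tested, 22 were called higher, 30 lower and 8 were not called. The called share of 86.7% is near the 86.4% of all tested genes.

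**Figure D5:**
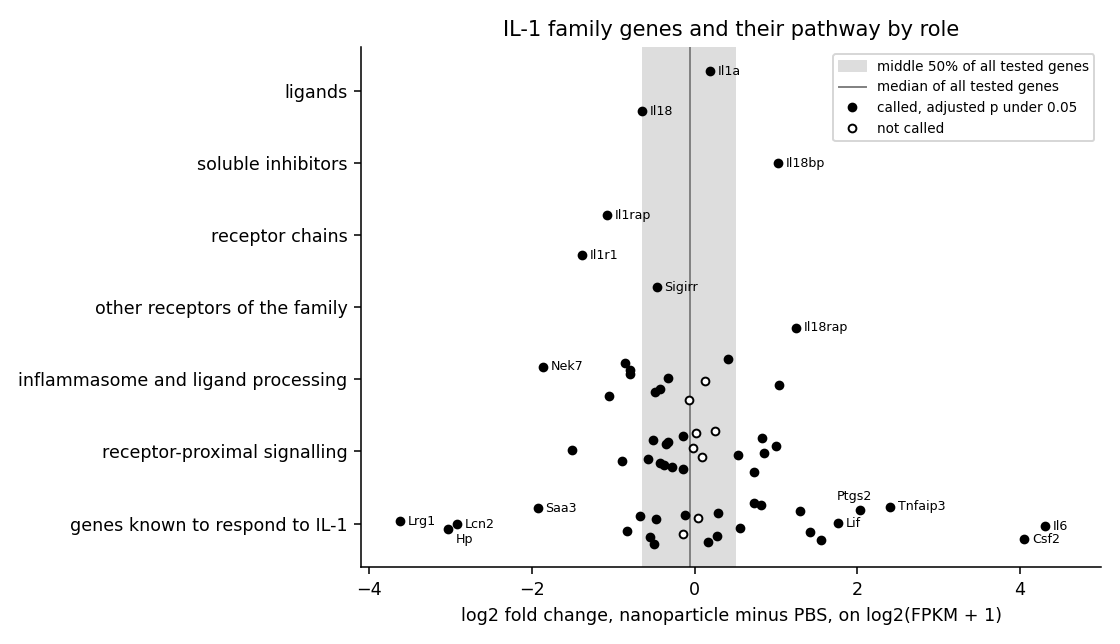
Log2 fold change (nanoparticle minus PBS, on log2(FPKM + 1)) of each tested gene by role; filled circles were called, open circles were not, and the grey band and line give the middle 50% and the median (-0.06) of all tested genes. Of the family, Il18bp and Il18rap lie right of the band, Il1r1 and Il1rap left of it, and Il18 (-0.65) just left of its edge (-0.635). The genes known to respond to IL-1 spread to both sides.

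The 3 tested genes whose profile over the 6 libraries was nearest to that of Il18bp, by Euclidean distance of log2(FPKM + 1) after subtracting each gene's mean, were Gla, a lysosomal galactosidase (distance 0.125), Surf6, a nucleolar protein (0.139), and Nqo1, a quinone reductase (0.151). Nearest to Il1r1 were Cemip2, a hyaluronan-degrading membrane protein (0.0622), Tor4a, a torsin-family ATPase (0.0655), and Slc7a5, a transporter of large neutral amino acids (0.0675). With 2 groups of 3 libraries, such a distance mostly compares 1 difference between groups.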

How the data were processed

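RNA of 4T1 cells was sequenced from 6 libraries, 3 per group. TRIzol extraction, mRNA enrichment, fragmentation and PCR are given per the labels' protocols. STAR and featureCounts, and the builds GRCm38 and mm10, are named per the submitters' processing notes, with no version or role; the sources used here do not give the program or annotation behind the values. The deposited values are taken as FPKM made by the authors: the file's header names no unit, the values are not whole, and their products with exonic length sum to nearly the same total in each library. Depth is unknown: at most 1.86% of ratios between low values (under 0.2 FPKM) of 2 libraries shared any 1% bin, and no read unit was recovered.

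The 701 features without a gene identifier stayed out of the tests. Genes reaching 1 FPKM in 3 libraries were kept, and nanoparticle minus PBS was tested on log2(FPKM + 1) by limma 3.58.1 (R 4.3.3, trend and robust eBayes, statmod 1.5.0), two-sided, with Benjamini-Hochberg adjustment over all tested genes. The fit was also run on simulated data in which few genes changed, a setting unlike these data, where most tested genes were called. Positions, spans and exonic lengths are from GENCODE M21 (GRCm38), and promoters from RefSeq (GRCm38.p6; 9 of 9 genes matched, 14 windows). The alternatives were a pseudocount of 0.1, no filter, a filter at 0.5 FPKM, median-of-ratios scaling, TPM, fits without each library in turn, a replicate block, a loess of each library's deviations on span and exonic length (span 0.3) removed, and limma without trend or robust settings. Genes named are the 9 family genes, all family ligands and receptors, the 3 genes of each pathway list with the smallest adjusted p, and the 3 nearest profiles of the called family genes with the largest rise and fall; others are marked. The members and lists were chosen with earlier results of these data known. Python 3.11.15, pandas 2.3.3, scipy 1.17.1 and matplotlib 3.10.9 were used.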

Additional observations from a re-analysis of the deposited data

How the results depend on the processing

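Il18, Il18bp and Il1r1 kept direction and call in all 14 alternatives, and Il1rap in 13. After removal of the trend with span and length, Il1rap was at 0.039 (adjusted p = 0.666) and Il1a at -0.026; the alternative's construction takes out the common fall of long genes, and nothing further was tested. Il1a lost its call on the TPM scale (0.063), a scale on which the median of all tested genes was -0.19 in place of -0.06, and ranged from 0.14 to 0.245 with 1 library left out, without the call when PBS library 1 or nanoparticle library 1 was absent. The family genes called higher numbered 1 (Il18bp) on the TPM scale and with the trend removed. They numbered 1 to 2 with 1 library left out, and 4 with no filter on low values (Il1rn and Il1rl1 in addition). Across the table, the genes called higher with no filter numbered 8445 of 20124 tested (42.0%), in place of 4395 of 10863 (40.5%). The cause of these changes was not tested.

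The labels give both groups replicates 1 to 3, but same-numbered libraries did not deviate together (correlations -0.0141, -0.0428 and 0.0411), and not every library correlated best with its own number. With a replicate block, 9371 genes were called in place of 9391, and the block changed no call of the 5 tested family genes. Depth is unknown, so values under 1 FPKM carry no counting interval.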
